A study of Mus musculus with 2 samples.

Results

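The 10 genes described here encode subunits of voltage-gated calcium channels: Cacna1a, Cacna1b, Cacna1c, Cacna1d, Cacna1e, Cacna1h, Cacna2d1, Cacna2d2, Cacnb2 and Cacnb3. They were found by exact symbol among the 32285 genes of the deposited matrices, and each symbol matched 1 row. Their counts of UMIs (tags that let copies of the same captured RNA molecule be counted once) were described across islet cell classes and between a library from CDS-treated mice and a library from saline-treated mice.

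A voltage-gated calcium channel opens when the membrane depolarises and lets calcium into the cell. Its alpha-1 subunit forms the pore and gives the channel its class, an alpha-2-delta subunit and a cytoplasmic beta subunit accompany the pore, and both raise the number of channels at the cell surface. In pancreatic beta cells, closure of ATP-sensitive potassium channels depolarises the membrane, and calcium entry, largely through L-type channels, triggers the release of insulin granules. Alpha and delta cells also use calcium channels for the release of glucagon and somatostatin.

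Islets were taken from mice labelled DIO that had received 10 mg/kg of an agent labelled CDS or saline for 2 weeks; the labels do not say what CDS is. Single-cell RNA was measured with 1 droplet library per group, so no difference has a replicate check, cells are not replicates, and no p-value is given. The number of mice behind each library is not stated in the labels. The labels call the cells islet b cells, but both libraries held cells with markers of other islet and immune cell types, and each cell was therefore assigned to a class from its own RNA.

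The CDS library held 7268 barcodes and 141191447 UMIs, and the saline library 12453 barcodes and 124343325 UMIs; 25 barcodes occurred in both. After filters and removal of called doublets, 6155 CDS cells and 10941 saline cells remained. Beta-like cells (3415 CDS and 5361 saline) had a median of 27384 UMIs per CDS cell and 15241 per saline cell. Alpha-like cells numbered 871 and 911, with medians of 11742 and 8235 UMIs, and delta-like cells 424 and 529, with medians of 15268 and 9878 UMIs. CDS beta-like cells lay mostly in clusters 1 and 3, and saline beta-like cells mostly in clusters 0 and 4; cluster 3 was led by the stress genes Mt1, Mt2, Hmox1 and Ddit3. The 8 beta cell markers summed to 534089 CPM in CDS beta-like cells and 336051 CPM in saline beta-like cells. These sums are scaled by TMM factors, as described below, and are not plain shares of the UMIs. The part of this difference, of depth and of cluster make-up in the results below was not tested. PP-like cells (218 CDS and 147 saline) were mixed, since 132 of the CDS cells and 40 of the saline cells also passed a glucagon gate, and only their levels are given. Delta-like cells also held markers of other endocrine classes. Delta markers summed to 55526 CPM in their CDS cells and 56907 CPM in their saline cells, PP markers to 76150 and 51889 CPM, and beta markers to 82063 and 59892 CPM. Alpha-like cells held markers of other endocrine classes as well. Their alpha markers summed to 110878 CPM in CDS and 85984 CPM in saline cells. PP markers summed to 43403 and 41114 CPM there, and beta markers to 25925 and 21214 CPM. The part of the RNAs of other classes in the alpha-like and delta-like results was not tested.

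Levels are the UMIs of a gene relative to all UMIs of its class, in CPM, scaled by TMM factors where a class held at least 100 cells in each library, with exact Poisson 95% intervals that cover counting error only. Subunits with 50 or more UMIs in the libraries together, and with some in each, count as measured. A measured subunit was called lower at a CDS over saline ratio of 0.8 or less, or higher at the reciprocal of 0.8 or more, when the 95% interval of the ratio did not contain 1.

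Most measured subunits were lower in the CDS library in beta-like and delta-like cells. In beta-like cells 7 of 9 measured subunits were lower and 0 higher, whereas 18.6% of 15424 measured genes were lower and 28.6% higher. In alpha-like cells 4 of 8 were lower and 0 higher, against 9.56% lower and 18.2% higher among 11842 genes. In delta-like cells 6 of 9 were lower and 0 higher, against 14% lower and 17.6% higher among 11469 genes. The median log2 ratio of the measured subunits was -0.50 in beta-like, -0.38 in alpha-like and -0.39 in delta-like cells; over all measured genes it was 0.063, 0.047 and 0.021.

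The subunit genes are long, and the ratio changed with gene span (the annotated length from first to last base, introns included) over all genes. The measured subunits had a median span of 252 kb in beta-like cells, where the median of all measured genes was 23.1 kb. In beta-like cells the median log2 ratio was 0.52 in the 3084 genes with the shortest spans (median 3.79 kb) and -0.35 in the 3084 genes with the longest (median 131 kb). The same range was 0.39 to -0.21 in alpha-like cells and 0.37 to -0.32 in delta-like cells. After the running median over span was subtracted, 0 of 9 subunits were lower and 1 higher in beta-like cells, where 18.5% of genes were lower and 18.3% higher by the same ratio limits without the condition on the interval. The 1 higher was Cacna1h, which rests on 79 UMIs and whose unadjusted ratio interval of 0.707 to 1.80 contained 1. The adjusted counts were 1 of 8 lower and 0 higher in alpha-like cells (12.9% of genes lower, 11.5% higher) and 1 of 9 lower and 0 higher in delta-like cells (13.5% lower, 13% higher). By these limits no subunit was called below the genes of its own span in beta-like cells. Cacna1a came just short of the lower limit, with an adjusted log2 ratio of -0.311, and Cacna1c had -0.252. Of the other abundant subunits Cacnb2 had -0.151, Cacna1d 0.129 and Cacna2d1 0.133, and the median of the 9 was -0.131.

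**Figure D1:**
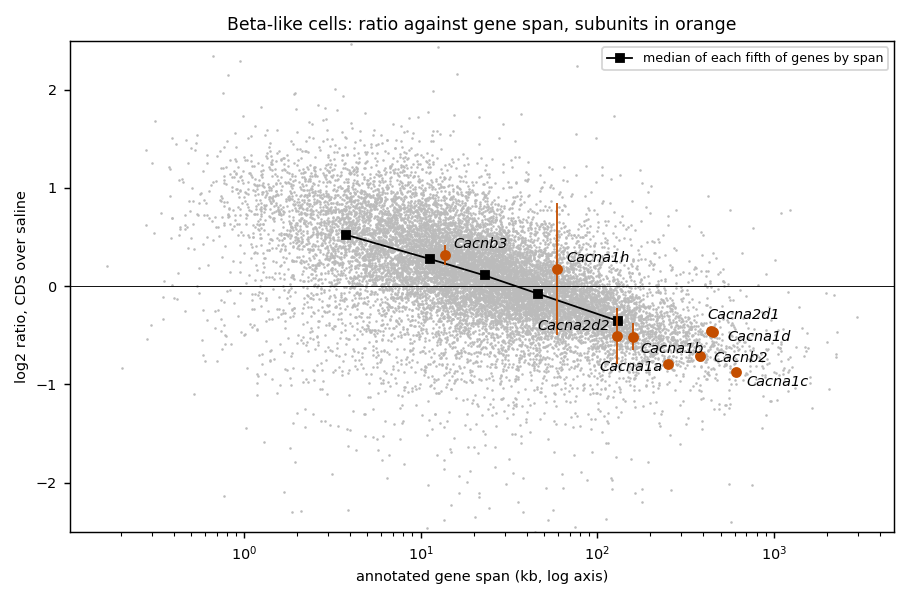
Log2 ratio, CDS over saline, in beta-like cells against annotated gene span in kb (log axis). Grey points are measured genes, black squares the medians of 5 equal groups of genes by span, and orange points the 9 measured subunits with 95% intervals; the squares fall with span, and Cacna1c, of 609 kb, has the lowest subunit ratio at -0.87.

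The scaling of the class totals shifted all genes together. With plain CPM, 49.4% of genes were lower and 9.98% higher in beta-like cells, and the median log2 ratio of all genes moved by -0.41. With a total that left out hormone, acinar and mitochondrially encoded genes, 35.6% were lower and 15.8% higher, with a shift of -0.25. In alpha-like cells plain CPM gave 17.8% lower and 11.8% higher and the total without those genes 16.7% and 12.6%, with shifts of -0.12 and -0.10. In delta-like cells they gave 24.4% lower and 10.2% higher, and 21.6% and 11.8%, with shifts of -0.14 and -0.10. The subunit counts were 7 of 9 lower in beta-like cells under both, 6 of 8 in alpha-like cells and 7 of 9 in delta-like cells.

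L-type pores came first by role. Cacna1c (chromosome 6, 118587240 to 119196418, minus strand, GRCm38), the L-type alpha-1 subunit also known from heart and smooth muscle, stood at 275 CPM in CDS beta-like cells and 503 CPM in saline beta-like cells, from 22471 and 47554 UMIs. The ratio was 0.547 (95% interval 0.539 to 0.556), the lowest of the 9 measured subunits. In alpha-like cells it had 584 CPM in the CDS library and 895 CPM in the saline library, a ratio of 0.652 (0.630 to 0.675). The level was lower in the CDS library in both classes, and in delta-like cells it was 307 CPM against 531 CPM in the saline library, a ratio of 0.577 (0.546 to 0.610). Among genes within a factor of 2 in level and 1.5 in span, 8% of 25 had a lower ratio than Cacna1c in beta-like cells, 3.23% of 31 in alpha-like cells and 0 of 50 in delta-like cells. Cacna1c thus lay at the low edge of genes of like level and span in all of these classes.

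Cacna1d (chromosome 14, 30039939 to 30491455, minus strand), the L-type alpha-1 subunit that opens at less depolarised voltages, had a higher ratio than Cacna1c in each of the 3 classes. It had 320 CPM in CDS beta-like cells and 443 CPM in saline beta-like cells, a ratio of 0.723 (0.712 to 0.734). In alpha-like cells it had 626 CPM in the CDS library and 645 CPM in the saline library, a ratio of 0.972 whose interval of 0.936 to 1.01 contained 1. Of 44 genes of like level and span, 88.6% had a lower ratio there. In delta-like cells it had 371 CPM in the CDS library and 471 CPM in the saline library (ratio 0.789, 0.748 to 0.833). In beta-like cells 64.5% of 31 such genes had a lower ratio, so that Cacna1d was above the middle of its neighbours while Cacna1c was at their low end. Per 100 kb of span, Cacna1d stood at 70.9 CPM in CDS and 98.1 CPM in saline beta-like cells, and Cacna1c at 45.2 and 82.5 CPM. Per kb of exon, Cacna1d had 25.4 and 35.1 CPM and Cacna1c 13.0 and 23.7 CPM, so Cacna1d was the higher of the L-type pores per length in both libraries on either scale.

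The share of cells with at least 1 UMI was also compared at an equal total of UMIs. When cells were thinned to 5000 UMIs, Cacna1c was found in 61.3% of 3186 CDS beta-like cells and 86.9% of 4916 saline beta-like cells; 229 and 445 shallower cells were left out. Cacna1d was found in 69.3% of the CDS cells and 86.7% of the saline cells, so it was above Cacna1c in the CDS library, and in the saline library their 95% intervals overlapped. Thinning matches total UMIs, so these shares follow plain CPM, on which the median log2 ratio of all genes moved by -0.41 and 49.4% of genes were lower. Beta cell markers took a larger part of the total in CDS cells, and their part in that shift was not tested. Without thinning the shares were 90.5% and 96.5% for Cacna1c and 93.0% and 96.5% for Cacna1d. T-like cells, used as a class that should hold little of either RNA, had Cacna1c in 14.7% and Cacna1d in 12.1% of 1255 saline cells at a median of 2162 UMIs; thinned, these were 13.7% and 11.8% of 51 cells. The beta-like shares of both libraries were well above that background; the CDS library held 11 T-like cells, too few for a share of its own.

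Cacna1a (chromosome 8, 84388440 to 84640246, plus strand) encodes the P/Q-type pore, which couples to release sites in neurons. It had 162 CPM in CDS and 280 CPM in saline beta-like cells, a ratio of 0.579 (0.567 to 0.591). In alpha-like cells the levels were 319 CPM in the CDS library and 450 CPM in the saline library (ratio 0.709, 0.676 to 0.744). It was called lower in both, and in delta-like cells, where it was at its highest, it had 423 CPM in the CDS library and 575 CPM in the saline library (0.736, 0.701 to 0.774). Of genes of like level and span, 6.67% of 90 in beta-like, 6.09% of 115 in alpha-like and 27.7% of 47 in delta-like cells had a lower ratio.

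Cacna1b (chromosome 2, 24603887 to 24763152, minus strand), the N-type pore known from nerve terminals, was scarce. It had 8.13 CPM in CDS and 11.6 CPM in saline beta-like cells (ratio 0.701, 0.636 to 0.773). In alpha-like cells it had 16.7 CPM in the CDS library and 24.8 CPM in the saline library (0.672, 0.544 to 0.830). It was also lower in delta-like cells, at 15.7 CPM in the CDS library and 25.9 CPM in the saline library (0.604, 0.468 to 0.777). Cacna1b was the subunit still called lower after the span adjustment in alpha-like and delta-like cells, with adjusted log2 ratios of -0.34 and -0.39; in beta-like cells it was -0.13. Of genes of like level and span, 13.2% of 296 in alpha-like, 10.5% of 351 in delta-like and 35.2% of 244 in beta-like cells had a lower ratio, so it lay within the range of its neighbours. The alpha-like and delta-like sums rest on 168 and 107 CDS UMIs.

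Cacna1e (chromosome 1, 154390731 to 154884501, minus strand) encodes the R-type pore. In beta-like cells it was barely found, with 3 UMIs in the CDS library and 19 in the saline library, and was not measured there. In alpha-like cells it had 7.55 CPM in the CDS library and 10.0 CPM in the saline library, a ratio of 0.754 whose interval of 0.543 to 1.05 contained 1. By the mean of the libraries the alpha-like level was 7.14 times that of macrophage-like cells, the next of the classes with 100 cells in each library. That fold rests on 1 CDS UMI and 2 saline UMIs in macrophage-like cells, and was 12 in the CDS library alone and 5.47 in the saline library alone. In delta-like cells there were 5 CDS UMIs and 9 saline UMIs.

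Cacna1h (chromosome 17, 25374285 to 25433783, minus strand) encodes a T-type pore, which opens near the resting potential, and was found mainly in delta-like cells among the endocrine classes. It had 38.6 CPM in CDS and 37.8 CPM in saline delta-like cells, from 264 and 229 UMIs, a ratio of 1.02 whose interval of 0.852 to 1.22 contained 1. In the other endocrine classes it lay between 0.477 and 0.951 CPM in the CDS library and between 0.423 and 2.09 CPM in the saline library. Delta-like cells thus had 25.1 times the mean level of the next class, PP-like cells, which held 3 CDS and 4 saline UMIs; the fold was 40.6 in the CDS library alone and 18.1 in the saline library alone. A UMI was found in 42.9% of 424 CDS and 33.8% of 529 saline delta-like cells, and in 1.05% of CDS and 0.690% of saline beta-like cells, which were deeper. Thinned to 5000 UMIs the delta-like shares were 16.9% and 22.0% and the beta-like shares 0.251% and 0.325%; no order between the libraries is read from them. In beta-like cells 39 CDS and 40 saline UMIs gave a log2 ratio of 0.18 that changed sign between settings, and 15 of the 39 CDS UMIs came from cluster 11; without that cluster it was -0.37.

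The alpha-2-delta genes differed in where they were found, and the bases before their RefSeq starts are shown for that contrast. The 250 bases upstream of the RefSeq start of each (GRCm38.p6) are chr5:15934441-15934690 for Cacna2d1 and chr9:107399630-107399879 for Cacna2d2, both on the plus strand. In the annotation used for spans Cacna2d2 starts at 107399612, so its window lies inside that gene. The Cacna2d1 window ends just before its annotated start of 15934691, so the windows are not like regions by that annotation. Capitals mark GGGCGG on either strand, the core of a GC box, with overlapping matches counted.
Cacna2d1: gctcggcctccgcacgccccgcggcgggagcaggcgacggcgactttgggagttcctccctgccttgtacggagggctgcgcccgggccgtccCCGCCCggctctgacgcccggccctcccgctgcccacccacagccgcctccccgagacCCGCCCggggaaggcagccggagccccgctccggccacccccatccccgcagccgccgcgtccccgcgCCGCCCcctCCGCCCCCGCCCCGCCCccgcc
Cacna2d2: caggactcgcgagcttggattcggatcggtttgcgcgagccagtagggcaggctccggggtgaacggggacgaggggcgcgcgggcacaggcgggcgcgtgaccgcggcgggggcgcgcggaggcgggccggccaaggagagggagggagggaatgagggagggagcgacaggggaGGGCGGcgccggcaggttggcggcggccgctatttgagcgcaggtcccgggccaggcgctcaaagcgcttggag
Cacna2d1 held 6 matches and had a GC content of 82.4%, and Cacna2d2 held 1 match and had one of 74.4%. GGGCGG occurs in 32.7% of 32851 promoter windows of the same length. TAATTA, a homeodomain core searched on both strands, was in neither, and it occurs in 4.84% of the windows. A match is a description of the letters and no binding was measured.

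Cacna2d1 (chromosome 5, 15934691 to 16374511, plus strand), also known as a binding site of gabapentin-type drugs, was found in all endocrine classes. It had 233 CPM in CDS and 320 CPM in saline beta-like cells (ratio 0.727, 0.714 to 0.740). Alpha-like cells had 445 CPM in the CDS library and 549 CPM in the saline library; the ratio of 0.810 (0.776 to 0.844) was just above the limit of 0.8. In delta-like cells the levels were 378 CPM and 496 CPM (0.763, 0.723 to 0.804). After the span adjustment its log2 ratio was 0.13, 0.020 and 0.087 in beta-like, alpha-like and delta-like cells, so it was not below genes of its span.

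Cacna2d2 (chromosome 9, 107399612 to 107529343, plus strand) was, like Cacna1h, found mainly in delta-like cells among the endocrine classes. It had 21.2 CPM in CDS and 25.1 CPM in saline delta-like cells, from 145 and 152 UMIs, a ratio of 0.845 whose interval of 0.668 to 1.07 contained 1. Beta-like cells followed at 2.09 CPM in the CDS library and 2.97 CPM in the saline library (0.705, 0.579 to 0.855), and delta-like cells had 9.15 times their mean level. Alpha-like cells had 0 UMIs in the CDS library and 4 in the saline library; a count of 0 allows up to 0.298 CPM at a limit of 3 UMIs, and the exact Poisson interval reaches 0.366 CPM. The alpha-2-delta genes therefore had different ranges of cell classes, with Cacna2d1 in all endocrine classes and Cacna2d2 near 0 outside delta-like and beta-like cells.

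The beta subunit genes differed in level and in ratio. Cacnb2 (chromosome 2, 14603088 to 14987908, plus strand) had 332 CPM in CDS and 543 CPM in saline beta-like cells (ratio 0.610, 0.601 to 0.619). The alpha-like level was 1271 CPM in the CDS library and 1626 CPM in the saline library (0.782, 0.763 to 0.801). It was called lower in both, and in delta-like cells it had 909 CPM against 1290 CPM in the saline library (0.704, 0.681 to 0.728). In the annotation 15 other genes overlap Cacnb2, 7 of them on its strand, and 1 same-strand gene each overlaps Cacna1c, Cacna1d and Cacna2d1, so reads may be shared.

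Cacnb3 (chromosome 15, 98630840 to 98644529, plus strand), with 13.7 kb the shortest of the 10 genes, was the subunit with a ratio above 1 by its interval in beta-like cells. It had 20.9 CPM in CDS and 16.8 CPM in saline beta-like cells, a ratio of 1.24 (1.16 to 1.33) that fell short of the limit for a higher call; its log2 ratio of 0.32 turned to -0.098 with plain CPM. Of 1057 genes of like level and span, 53.3% had a lower ratio, so Cacnb3 lay in the middle of its neighbours. Alpha-like cells had 42.2 CPM in the CDS library and 40.4 CPM in the saline library (1.04, 0.901 to 1.21). In delta-like cells it had 41.9 CPM in the CDS library and 41.8 CPM in the saline library (1.001, 0.843 to 1.19), and in both classes the interval contained 1. Per 100 kb of span Cacnb3 stood at 153 CPM in CDS and 123 CPM in saline beta-like cells, and Cacnb2 at 86.2 and 141 CPM. Per kb of exon Cacnb3 had 5.22 and 4.19 CPM and Cacnb2 25.1 and 41.1 CPM. Cacnb2 was thus the higher of the beta subunits on both scales in the saline library, whereas in the CDS library the order depended on the length used.

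**Figure D2:**
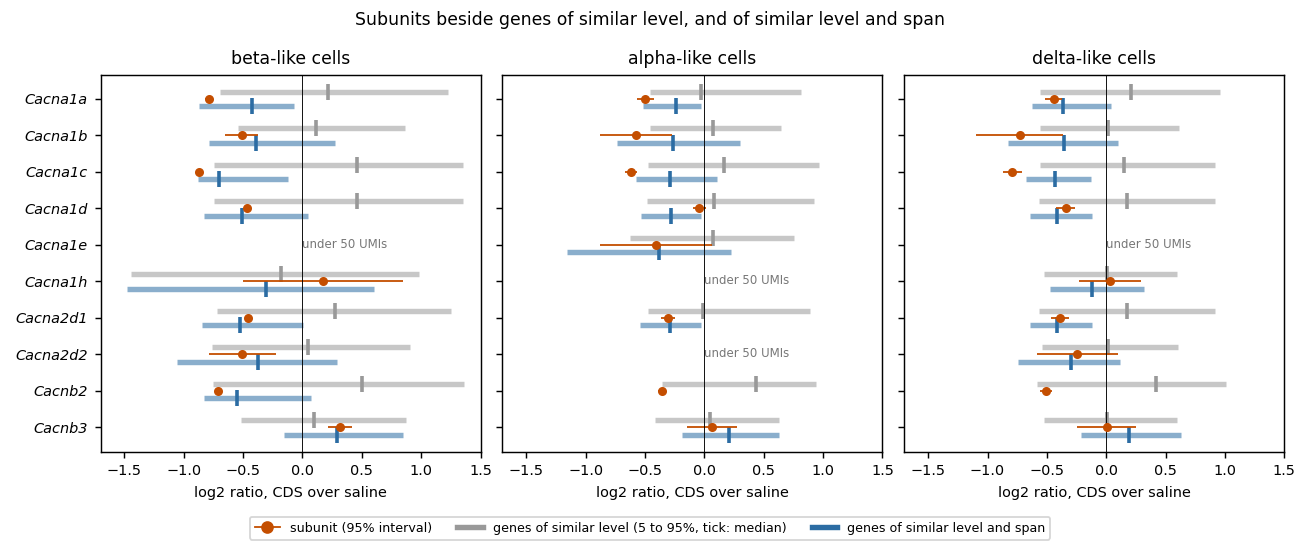
Log2 ratio, CDS over saline, of each subunit (orange, 95% interval) in beta-like, alpha-like and delta-like cells. Grey bars span the 5 to 95% range of measured genes within a factor of 2 in level and blue bars that of genes also within a factor of 1.5 in span, with ticks at the medians (no blue bar under 20 genes); Cacna1c lies at the low end of the blue bar in beta-like cells and below it in alpha-like and delta-like cells.

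Among the 6 classes with at least 100 cells in each library, each subunit was highest in alpha-like or delta-like cells. TMM factors were set between the libraries of a class, not between classes, and hormone RNA is part of each total. Beta markers summed to 534089 CPM in CDS and 336051 CPM in saline beta-like cells. Alpha markers summed to 110878 and 85984 CPM in alpha-like cells. The part of these RNAs in the order of the classes was not tested. Cacna1c was highest in alpha-like cells, apart from delta-like cells by ranges that did not overlap over the libraries, followed by delta-like, beta-like and PP-like cells whose ranges overlapped from neighbour to neighbour. Cacna1d had the same order, with alpha-like cells apart and the other 3 endocrine classes overlapping. Cacnb2 ran from alpha-like and delta-like cells, which overlapped, to PP-like and beta-like cells, each apart from its neighbours. Cacna1a was highest in delta-like cells, overlapping alpha-like cells, and Cacnb3 and Cacna1b were alike in delta-like and alpha-like cells. Beta-like cells were the lowest of the 4 endocrine classes for Cacna1b, Cacna2d1, Cacnb2 and Cacnb3, overlapping PP-like cells for the Cacna1b and Cacna2d1 levels. By mean level they were also the lowest for Cacna1e and Cacna1h, at 0.119 and 0.450 CPM. The next endocrine classes there, PP-like at 0.579 CPM and alpha-like at 0.855 CPM, held few UMIs as well.

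**Figure D3:**
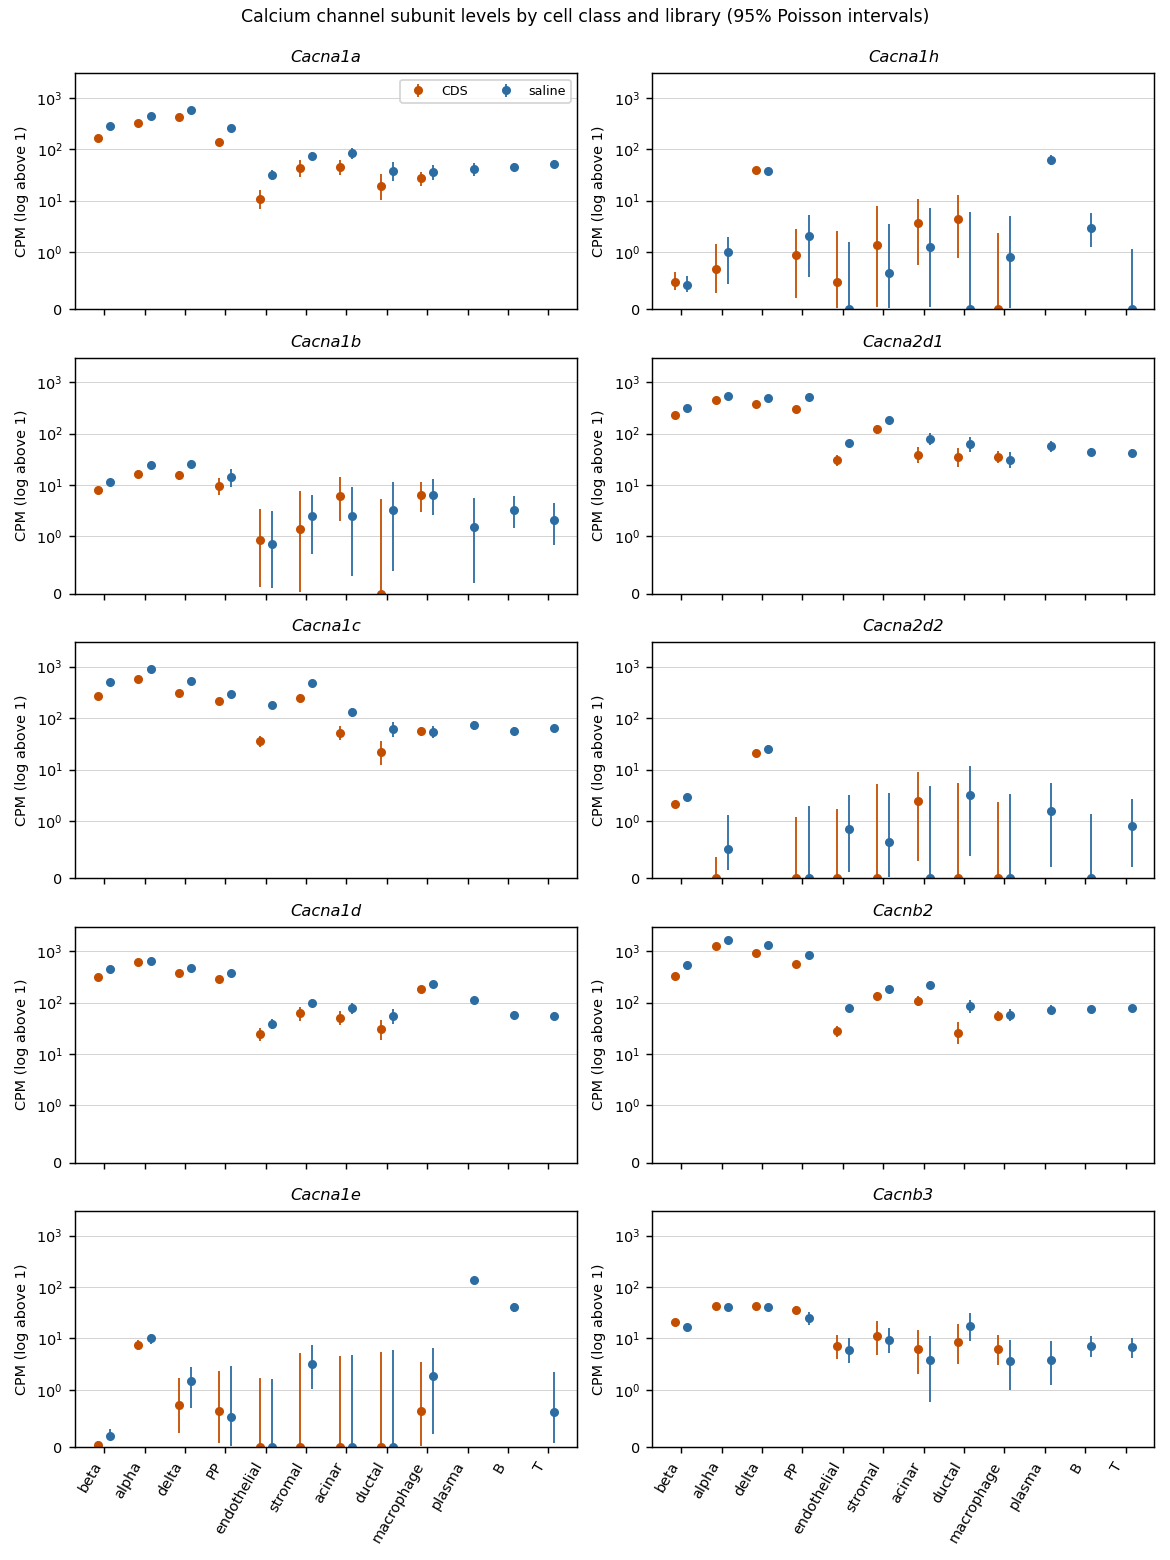
CPM of each subunit (log axis above 1, linear below) in 12 cell classes, CDS in orange on the left and saline in blue on the right, with 95% Poisson intervals; classes with fewer than 40 cells in a library are not drawn for it, and classes under 100 cells in either library are not TMM-scaled. Cacna1h stands out in saline plasma-like cells and in delta-like cells, and Cacna2d2 in delta-like cells. Cacna1e stands out in plasma-like, B-like and alpha-like cells, and Cacna1c in endothelial-like cells differs between the libraries.

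Outside the endocrine classes the subunits were mostly low, with a few exceptions. Macrophage-like cells had Cacna1d at 181 CPM in the CDS library and 226 CPM in the saline library (ratio 0.801, 0.674 to 0.954), well above the 24.0 and 38.1 CPM of endothelial-like cells. Few cells held most of it, since 8 of 157 CDS cells and 11 of 162 saline cells held 50% of the UMIs. In macrophage-like cells 0 of 5 measured subunits were lower or higher, where 14.6% of genes were lower and 16.6% higher. After the span adjustment Cacna2d1 passed the limit for higher there, with a log2 ratio of 0.48. It rested on 56 CDS and 34 saline UMIs, and its unadjusted interval of 0.726 to 1.79 contained 1. Beta markers summed to 61801 CPM in CDS and 39528 CPM in saline macrophage-like cells, and their part in these values was not tested. Stromal-like cells had Cacna1c at 251 CPM in 71 CDS cells and 475 CPM in 168 saline cells. The class differed between the libraries: the 7 stromal markers summed to 1809 CPM in its CDS cells and 3274 CPM in its saline cells, the 5 Schwann cell markers to 1622 CPM and 151 CPM, with all of both lists above 0, and their part in the Cacna1c values was not tested.

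In plasma-like cells, found as 3 CDS and 92 saline cells, Cacna1e and Cacna1h were high, while Cacna1b had 2 saline UMIs. The saline plasma-like cells had Cacna1e at 137 CPM, from 177 UMIs in 63 of 92 cells, and Cacna1h at 62.6 CPM, from 81 UMIs in 47 of 92 cells. Saline B-like cells had Cacna1e at 40.5 CPM, from 112 UMIs in 79 of 1187 cells, and saline T-like cells had it at 0.609 CPM, in 2 of 1255 cells. Cacna1h was in 7 of the B-like and 0 of the T-like cells. The B-like and T-like cells had similar median depths, of 1761 and 2162 UMIs, and the plasma-like cells a depth of 11992. With 3 CDS plasma-like cells no comparison of the libraries was made for them.

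Endothelial-like cells had the lowest Cacna1c ratio of the classes compared. Cacna1c had 35.2 CPM in 263 CDS cells and 178 CPM in 339 saline cells, from 75 and 411 UMIs, a ratio of 0.198 (0.153 to 0.254). All 5 measured subunits were lower, where 14.2% of 8497 genes were lower and 19.7% higher, and 4 were lower after the span adjustment (17.3% of genes). The share of cells with a Cacna1c UMI, thinned to 5000 UMIs, was 8.08% of 198 CDS cells and 36.5% of 181 saline cells; without thinning it was 13.3% and 30.1%, at median depths of 7756 and 5194 UMIs. Few cells held most of it: 7 of the 263 CDS cells and 15 of the 339 saline cells held 50% of the UMIs. Markers of stromal cells, in which Cacna1c is high, summed to 203 CPM in CDS and 272 CPM in saline endothelial-like cells, with 5 and 7 of 7 above 0, and their part in the result was not tested. Ductal-like cells, in which little is expected, had 21.8 CPM in the CDS library and 61.3 CPM in the saline library. Their thinned shares were 5.26% of 38 CDS cells and 15.9% of 44 saline cells, at unthinned medians of 13706 and 10315 UMIs, so the CDS endothelial-like share was close to this background.

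Within beta-like cells the levels of the abundant subunits differed widely between the 6 clusters with at least 100 cells in each library. TMM factors were set within each cluster, not between clusters. Over both libraries the median was 26322 UMIs per cell in cluster 3 and 10658 in cluster 4. The part of depth and of hormone RNA in the level differences between clusters was not tested. Cacna1c stood at 181 CPM in CDS and 364 CPM in saline cells of cluster 3, and at 899 CPM in CDS and 971 CPM in saline cells of cluster 4. Cluster 4, led by genes such as Sgcz and Kcnip1, held 168 CDS and 1120 saline cells, and cluster 3 held 1059 and 257. In cluster 4, 0 of 8 measured subunits were lower (7.57% of genes). In the others the lower counts were 3 of 8 in cluster 0 (8.86% of genes), 4 of 8 in cluster 1 (9.38%), 6 of 7 in cluster 3 (12.4%), 3 of 7 in cluster 7 (10.9%) and 6 of 7 in cluster 11 (19%). Higher were 2 of 8 in cluster 1, Cacna2d2 and Cacnb3, where 18.3% of genes were higher, and 0 in each of the others, where 9.04% of genes were higher in cluster 0, 22.5% in cluster 3, 4.55% in cluster 4, 14.3% in cluster 7 and 24.6% in cluster 11. After the span adjustment the lower counts were 1 in cluster 0 (13.4% of genes), 0 in cluster 1 (12.5%), 2 in cluster 3 (17.9%), 0 in cluster 4 (17.2%), 0 in cluster 7 (12%) and 1 in cluster 11 (19.2%). These were Cacna1b in cluster 0, Cacna1b and Cacna1c in cluster 3, and Cacna1a in cluster 11. Higher after it was 1 subunit, Cacna2d2, in clusters 1 (13.3% of genes) and 4 (15.7%), and 0 in clusters 0 (9.98%), 3 (19.2%), 7 (11.9%) and 11 (19.2%). Without that adjustment Cacna1c was lower within 5 of these 6 clusters, with log2 ratios from -1.01 in cluster 3 to -0.37 in cluster 0, and -0.11 in cluster 4. Cacna1d was lower in clusters 3 and 11 and had ratios of 0.852 to 1.06 in the others.

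**Figure D4:**
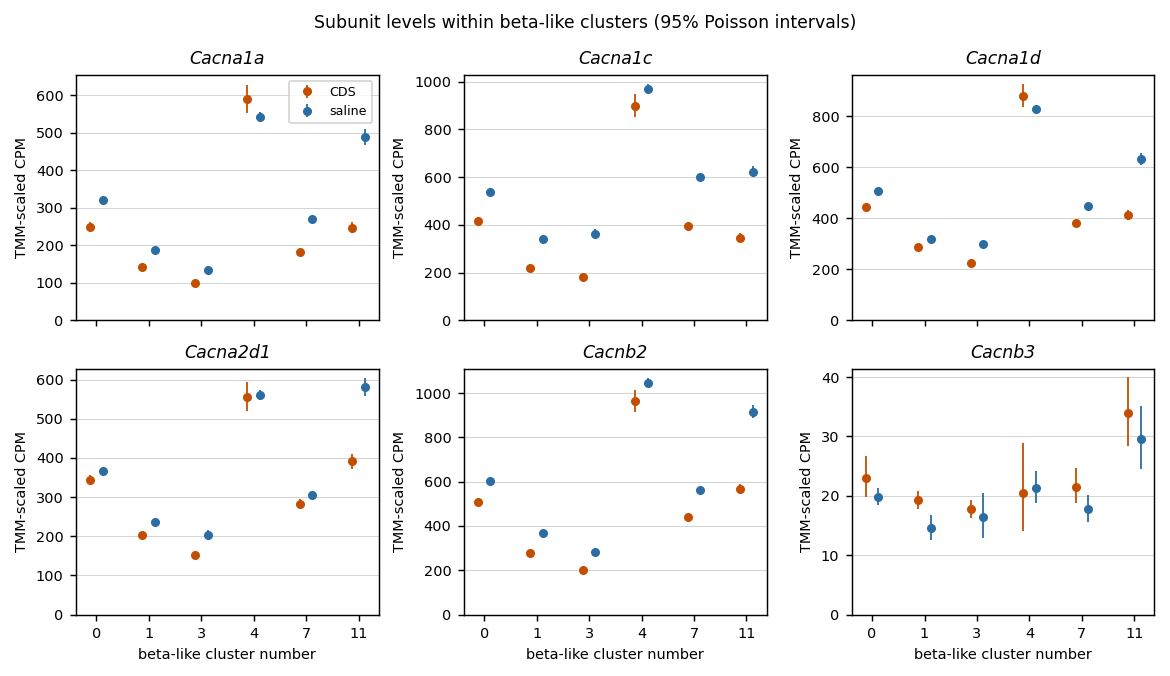
TMM-scaled CPM of 6 subunits in CDS (orange, left) and saline (blue, right) cells of the 6 beta-like clusters with enough cells, with 95% Poisson intervals and axes from 0. The CDS levels of all but Cacnb3 are highest in cluster 4 and lowest in cluster 3, and for each of these subunits the CDS over saline ratio is nearest to 1 in cluster 4.

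The genes most alike in level were found over 12 points, 6 classes in 2 libraries, as Pearson correlation of log2(CPM + 1) among 10207 genes; the points share the libraries and no p is given. They were Kcnh8, Ggcx and Esrrg for Cacna1a (r of 0.998, 0.996 and 0.994), Gmds, Pdxdc1 and Fntb for Cacna1c (0.988, 0.974 and 0.972), and Slc9a7, Mbp and Gmppa for Cacna1d (0.990, 0.989 and 0.976). For Cacnb2 they were Nalcn, Celf4 and Pkhd1 (0.997, 0.996 and 0.996) and for Cacna2d1 Bicdl1, Map2 and Baiap2l1 (0.993, 0.992 and 0.991). For Cacna1h, whose likeness rests on the delta-like points, they were Grm8, Cdr1os and Trpc5 (0.982, 0.979 and 0.978). Those for Cacna2d2 were Gm20754, Bmp3 and Ankrd34b (0.974, 0.970 and 0.969), for Cacnb3 Castor2, Clip3 and Wdr6 (0.989, 0.988 and 0.985) and for Cacna1b Fggy, Armc9 and Hook2 (0.983, 0.981 and 0.978).

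Other genes of the calcium pathway in beta-like cells were counted by list, where 18.6% of all measured genes were lower and 28.6% higher, and 18.5% and 18.3% after the span adjustment. Among the 16 other channel subunit genes, 9 were measured, 0 were higher and 3 lower (3 and 2 after the span adjustment); Cacng4 had 3.11 CPM in the CDS library and 4.197 CPM in the saline library (ratio 0.741). Cacna2d4 had 3.44 and 2.83 CPM (1.21, interval above 1 but under the limit). Of the channels that set the membrane potential, 19 of 20 listed symbols occurred in the matrices and 18 were measured, 4 higher and 7 lower. After the span adjustment 2 were higher and 4 lower. Abcc8, the regulatory subunit of the ATP-sensitive potassium channel, had 313 CPM in the CDS library and 396 CPM in the saline library (0.791). Kcnma1, a calcium-activated potassium channel, had 264 and 404 CPM (0.654), and Trpm4, a calcium-activated cation channel, had 20.8 and 12.9 CPM (1.61). Kcnn3, also a calcium-activated potassium channel, had 14.8 and 26.5 CPM (0.557).

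Genes of calcium stores, pumps and sensors were mixed, with 23 of 24 measured, 5 higher and 6 lower, and 4 higher and 0 lower after the span adjustment. Sri, which encodes sorcin, had 66.2 CPM in CDS and 35.1 CPM in saline beta-like cells (ratio 1.89). Atp2a2, the pump that fills the endoplasmic reticulum with calcium, had 482 and 493 CPM (0.979). Of the proteins that release granules at the channel, 16 of 17 were measured, 2 higher and 8 lower, and 1 higher and 2 lower after the span adjustment. Pclo, a scaffold of release sites, had 342 CPM in the CDS library and 511 CPM in the saline library (0.668). Cadps, which primes granules for release, had 202 and 359 CPM (0.562). The scaffold genes Erc2 and Rimbp2 had 70.6 and 132 CPM (0.536) and 103 and 188 CPM (0.547). The median log2 ratios of the 4 lists were -0.20, -0.23, -0.11 and -0.29, beside -0.50 for the 9 measured subunits. The subunit genes were longer, with a median span of 252 kb against 111, 84.8, 96.7 and 81.7 kb in the lists; after the span adjustment the medians of the lists were 0.017, 0.017, 0.15 and -0.032, beside -0.13 for the subunits. In alpha-like cells, where 9.56% of genes were lower and 18.2% higher, 6, 15, 22 and 16 genes of the lists were measured, of which 1, 1, 3 and 6 were lower and 0, 2, 3 and 1 higher. In delta-like cells, with 14% of genes lower and 17.6% higher, 7, 15, 22 and 16 were measured, of which 1, 7, 8 and 9 were lower and 0, 0, 4 and 0 higher. After the span adjustment 0, 0, 1 and 4 were lower and 2, 2, 2 and 0 higher in alpha-like cells. Of all genes, 12.9% were lower and 11.5% higher there after it. Delta-like cells then had 1, 3, 1 and 5 lower and 1, 1, 1 and 0 higher, against 13.5% and 13% of genes.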

How the data were processed

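The deposited matrices hold UMI counts per gene and barcode, not normalized; per the submitters' processing notes, Cell Ranger 7.1, Seurat 4 and edgeR were used with build mm10, and the file header gives Cell Ranger 7.1.0. The annotation and the treatment of intron reads are not stated in the labels or headers. The labels' protocols, worded alike for both libraries, name both the v3.1 and the v2 kit chemistry, so which was used for each library is not known here. The members and gene lists were chosen with earlier results of these data known. Barcodes with at least 500 genes, 1000 UMIs and at most 20% mitochondrial UMIs were kept; doublets were called with Scrublet in Scanpy 1.11.5 (4.05% of CDS and 5.61% of saline barcodes). Cells of both libraries were clustered together with 2000 variable genes, without the subunit genes, and Leiden resolution 1 (leidenalg 0.10.2), and clusters were named from markers or left unnamed (596 CDS and 654 saline cells). UMIs were summed per class and library and scaled with TMM factors (edgeR 4.0.16); ratios carry exact conditional Poisson intervals. Named genes were all members and, from each list, the 2 highest and the 2 most changed at 20 CPM or more; 1 gene that this rule named is not reported here. Spans came from GENCODE M21, which held 32235 of 32285 gene IDs. The scripts were tested on simulated counts.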

Additional observations from a re-analysis of the deposited data

How the results depend on the processing

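The counts of lower subunits moved by more than 1.5 times with 1 alternative, the adjustment for gene span, which gave 0 in beta-like, 1 in alpha-like and 1 in delta-like cells. It also reversed 4 log2 ratios among those called lower or higher in the main setting. In beta-like cells these went to 0.13 for Cacna1d and 0.13 for Cacna2d1. In delta-like cells they went to 0.14 for Cacna1d and 0.087 for Cacna2d1. Some ratios without such a call changed sign too, among them Cacna1d in alpha-like cells, from -0.042 to 0.28. Under all other alternatives run (scaling, cell filters, doublets, clustering, hormone gate, weighting, thinning and expression limit) the count was 7 in beta-like cells, or 8 of 10 without the limit of 50 UMIs, between 3 and 6 in alpha-like cells and between 5 and 7 in delta-like cells. Of the other recomputed values (single subunits, medians, shares and counts of higher subunits), 372 were labelled the same, 119 moved and 4 reversed. The same meant inside the main interval for single subunits, within a factor of 1.5 for counts and within 5 points for shares. A single subunit was labelled reversed only if it was called lower or higher in the main setting and its ratio changed sign. Other changes of sign are among the same or the moved. Medians had no spread to compare with and were counted as moved unless reversed, so the 119 include medians that hardly changed. Leaving in the unnamed clusters that best matched beta cells, or leaving out the beta-like cluster of lowest score, both chosen after seeing the data, kept the beta-like count at 7. Clustering each library alone and Leiden resolution 0.5 gave no alpha-like class in a library and were not run for it. No paired analysis was possible because each group has 1 library. Intervals cover counting error only, and Cacna1e and Cacna1h in beta-like cells rest on 22 and 79 UMIs.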
